A study of Mus musculus with 8 samples.

Results

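The cells described here are cortical thymic epithelial cells (cTEC) of 1-week-old mice that were rich in the RNA of Tbata and Ccl25. They were chosen from single-cell counts of unique molecular identifiers (UMIs, 1 per captured RNA molecule) by a rule on 12 genes. A cell needed at least 4000 UMIs, at least 3 UMIs of Epcam, Krt8, Krt18 and Krt5 together, and more of these than of Col1a1, Col1a2, Col3a1 and Dcn. It also needed at least 3 UMIs of Psmb11 plus Prss16 that made up at least 0.1% of its UMIs, and Tbata plus Ccl25 at 0.3% of its UMIs or above. Of 9953 cells in the series and 3276 cells at 1 week, 1970 met the epithelial part of the rule, 1425 of these also met the part on Psmb11 and Prss16, and 953 met the whole rule. The other 472 cTEC by Psmb11 and Prss16, here called Tbata-low cTEC, and the 545 epithelial cells without the cTEC counts were the comparison groups.

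The data are from CITE-seq, a droplet method that reads mRNA and the DNA tags of surface-binding reagents (antibody-derived tags, ADT) in the same cell. Thymi of untreated C57BL/6 mice were pooled at 1 week and at 16 weeks of age. Cells carrying CD45 were depleted, and the rest were stained with a panel of 27 tags and sorted for lack of CD45 and Ter119, with and without EpCAM1. The EpCAM1-positive fraction made up the larger part of the mix that was loaded on 2 wells per age. Each age was therefore 1 pool. The wells, called well 1 and well 2 here, repeat the capture and library preparation only, and an exact permutation over 2 wells could not give a p-value below 0.5, so no test was made and each value is given per well. A spread marked ± is the SD over the 2 wells. Intervals on shares are exact 95% binomial (Clopper-Pearson) intervals and cover counting error only. RNA UMIs came to 31917364 and 25654110 over the 1846 and 1430 cells of the 1-week wells, with 8821612 and 7984013 ADT counts, and to 21281389 and 45480790 over the 1939 and 4738 cells of the 16-week wells. Across the series 15 cell barcodes were found in more than 1 library, in 35 cells of which 6 were among the 953. Without them the mean share of these cells among 1-week epithelial cells was 47.5% in place of 47.6%. The labels name version 2 of the 3′ kit and the methods version 3, which was not settled.

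Cortical TEC line the outer thymus, attract progenitors from the blood, provide the Notch ligand DLL4 and select thymocytes on self-peptides that are cut by a proteasome subunit (Psmb11) and a serine protease (Prss16) found mainly in these cells. Ccl25 encodes a chemokine that draws thymocyte progenitors through the receptor CCR9. Tbata encodes a protein first described in thymus, brain and testis that has been linked to the control of TEC proliferation. Cd83 encodes a surface protein that keeps MHC class II and CD86 from being degraded. FOXN1, the transcription factor on which TEC identity depends, acts on genes of the cortical program.

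The 4 cTEC genes of the rule lie on 4 chromosomes (GRCm38, GENCODE M21 gene bounds). Tbata spans chr10:61171954-61188841 (plus strand), Ccl25 chr8:4325210-4360020 (plus strand), Psmb11 chr14:54621433-54629556 (plus strand), Prss16 chr13:22002173-22009742 (minus strand) and Cd83, a marker that took no part in the choice of cells, chr13:43784775-43803132 (plus strand). The promoter windows of the pair that sets these cells apart are shown because FOXN1 is background knowledge for both the pair and the cortical program. Each runs from 250 bases before to 50 bases after the annotated start (RefSeq, GRCm38.p6, plus strand), and capitals mark GACGC or its reverse complement GCGTC, the core letters attributed to FOXN1.
Tbata, chr10:61171714-61172013: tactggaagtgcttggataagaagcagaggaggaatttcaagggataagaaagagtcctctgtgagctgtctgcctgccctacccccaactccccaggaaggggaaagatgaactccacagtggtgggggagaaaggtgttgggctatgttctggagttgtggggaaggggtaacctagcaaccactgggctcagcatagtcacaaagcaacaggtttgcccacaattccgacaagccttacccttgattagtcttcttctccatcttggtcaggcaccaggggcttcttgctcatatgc
Ccl25, chr8:4324960-4325259: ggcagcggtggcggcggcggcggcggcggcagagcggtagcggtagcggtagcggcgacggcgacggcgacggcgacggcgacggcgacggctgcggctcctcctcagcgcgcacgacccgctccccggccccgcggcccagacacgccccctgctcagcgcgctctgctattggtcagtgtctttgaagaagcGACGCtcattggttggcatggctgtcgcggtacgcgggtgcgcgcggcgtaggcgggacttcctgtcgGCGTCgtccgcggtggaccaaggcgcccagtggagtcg
Psmb11, chr14:54625060-54625359: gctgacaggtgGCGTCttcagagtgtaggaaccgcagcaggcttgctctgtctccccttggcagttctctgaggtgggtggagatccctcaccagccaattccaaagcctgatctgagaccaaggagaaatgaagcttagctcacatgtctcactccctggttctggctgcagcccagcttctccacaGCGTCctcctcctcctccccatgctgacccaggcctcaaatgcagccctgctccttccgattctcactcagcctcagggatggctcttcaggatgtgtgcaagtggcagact
The Tbata window held no match. RefSeq gives 2 Ccl25 starts in this set. The window shown held 2 matches, whose first bases lay at -56 and 12 from the start, and the window of the other start, chr8:4349338-4349637, held 0. The Psmb11 window also held 2, at -239 and -62. Over all 32851 windows provided, 27.2% held a match, and over the windows of genes that passed the count filter below 44.6% did. With the genes of the rule left out, the 301 genes at least 2-fold higher in the Tbata- and Ccl25-rich cells than in Tbata-low cTEC held one in 44.2% of their windows, and genes at least 2-fold lower in 37.3%. The letters were therefore about as frequent in the higher group as in all genes that passed the filter. A match is a run of letters and not a bound site.

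The Tbata- and Ccl25-rich cTEC were 52.2% (49.3% to 55.1%) of the 1-week epithelial cells in well 1 and 43.0% (39.6% to 46.5%) in well 2. The wells of the same pool thus differed by more than counting error. Of the cTEC by Psmb11 and Prss16 they were 69.9% and 62.3%. At 16 weeks the same rule kept 33 of 902 and 98 of 2036 epithelial cells, which was 3.66% (2.53% to 5.10%) and 4.81% (3.92% to 5.83%). Their mean of 4.24% was 6.96% without cells over 5% mitochondrial UMIs. Among 16-week cTEC by Psmb11 and Prss16 the shares were 60% of 55 cells and 66.2% of 148. Few 16-week epithelial cells were cTEC by these counts at all, and the rich share within cTEC had overlapping intervals at the 2 ages (well intervals from 66.7% to 72.9% and 58.2% to 66.3% at 1 week, from 45.9% to 73.0% and 58.0% to 73.8% at 16 weeks).

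The values that chose the cells are a description only. Tbata stood at 9322 and 8676 CPM (UMIs of the gene per 1000000 UMIs summed over a group's cells) in wells 1 and 2, against 795 and 824 in Tbata-low cTEC. Ccl25 stood at 6812 and 5761 against 651 and 671. Psmb11 was 1138 and 1138 against 356 and 382, and Prss16 was 4387 and 4243 against 1897 and 1841. Both pairs of wells lay far closer to each other than to the other group. Droplets also hold free RNA from broken cells, so cells with at least 3 fibroblast UMIs and more of them than epithelial UMIs, 276 and 265 per well, served as background. In these Tbata was at 447 and 486 CPM, Ccl25 at 267 and 373 and Psmb11 at 84.1 and 94.1. With each cell thinned to 4000 UMIs, at least 1 Tbata UMI was present in 100.0% and 100.0% of the rich cTEC, in 93.1% and 95.3% of Tbata-low cTEC and in 83.7% and 79.6% of the fibroblast-gene cells. A Tbata UMI is thus no sign of a cTEC in these wells, and it was the amount that set the cells apart. Psmb11 at least once was seen in 93.7% and 91.2% of the rich cTEC, 72.2% and 73.7% of Tbata-low cTEC and 30.8% and 33.2% of the fibroblast-gene cells. The median UMIs per cell before thinning were 16154 and 25201.5, 8824 and 7633, and 19547.5 and 18449 in the 3 groups.

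The part of a cell's UMIs taken by Tbata plus Ccl25 formed a range without a gap. In bins on a log scale it had 2 peaks in both wells. Well 1 held 83 cTEC from 0.178% to 0.237%, 56 from 1% to 1.33% and 96 from 1.78% to 2.37%. Well 2 held 65 from 0.237% to 0.316%, 32 from 1% to 1.33% and 58 from 1.78% to 2.37%. The limit of 0.3% lay in or beside the lower peak, so the rich cTEC join cells of both peaks. In well 1 the lowest of the 601 cells had 0.303%, the median 0.902% and the highest 3.89%. In well 2 the lowest of the 352 cells had 0.3003%, the median 0.882% and the highest 3.20%. Just inside the limit, from 0.30% to 0.35%, were 39 and 31 cells, and just outside, from 0.25% to 0.30%, were 48 and 40. The highest cTEC left out had 0.2995% and 0.296%, so the limit cut through a populated range and not through a gap. The 2 genes entered together. Tbata alone reached 0.3% in 452 and 254 cells, Ccl25 alone in 354 and 205, both did so in 334 and 191, and in 129 and 84 cells only the sum did. Ccl25 made up 42.2% and 39.9% of the pair's UMIs. Every member had Tbata UMIs and 1 member, in well 1, had no Ccl25 UMI.

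**Figure D1:**
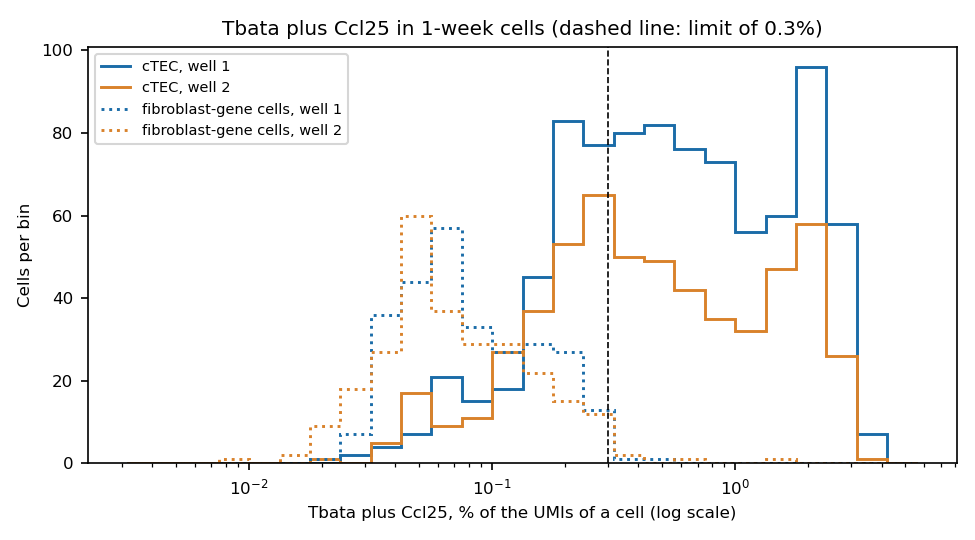
Number of 1-week cells per bin (y axis) by the percent of a cell's UMIs from Tbata plus Ccl25 (x axis, log scale), for cTEC by Psmb11 and Prss16 and for cells with more fibroblast than epithelial UMIs, 1 line per well. The cTEC spread from below 0.1% to 3.89% with no gap at the limit of 0.3% (dashed line) and an upper peak from 1.78% to 2.37% in both wells. The fibroblast-gene cells had medians of 0.0723% and 0.0626%.

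Depth and RNA quality moved with the choice and stand beside every RNA result below. The rich cTEC held a median of 16154 and 25201.5 UMIs per cell, against 8824 and 7633 in Tbata-low cTEC. Mitochondrial UMIs took a median of 2.42% and 2.62%, against 6.08% and 6.85%. The relation was not a straight line. In well 1, cTEC split by Tbata plus Ccl25 at 0.1%, 0.2%, 0.3%, 0.5% and 1% had median UMIs of 33259, 9383, 6242, 5964, 7648 and 42341 from the lowest band to the highest, and in well 2 of 28035, 6360.0, 6623, 7254, 10640.0 and 43507. The deepest cells were therefore at both ends of the range. The shallowest band ran from 0.3% to 0.5% in well 1 and from 0.1% to 0.2% in well 2. Median mitochondrial shares ran the other way, with 1.49, 6.52, 8.44, 8.74, 3.61 and 1.52 percent in well 1 and 2.26, 7.68, 8.36, 9.05, 6.57 and 1.70 percent in well 2. The lowest band, with 49 and 43 cells, and the highest, with 277 and 164, were both deep and low in mitochondrial UMIs, though the highest was the deeper in both wells. Between these bands Cd83 went from 80.2 to 634 CPM in well 1 and from 51.2 to 662 in well 2. Isg20, an RNA exonuclease gene, went from 97.2 to 1908 and from 118 to 1787. Foxn1 went from 143 to 249 and from 132 to 264. The proliferation gene Mki67 went the other way, from 175 to 29.1 and from 201 to 16.0. The part of depth and mitochondrial share in the RNA differences was not tested.

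**Figure D2:**
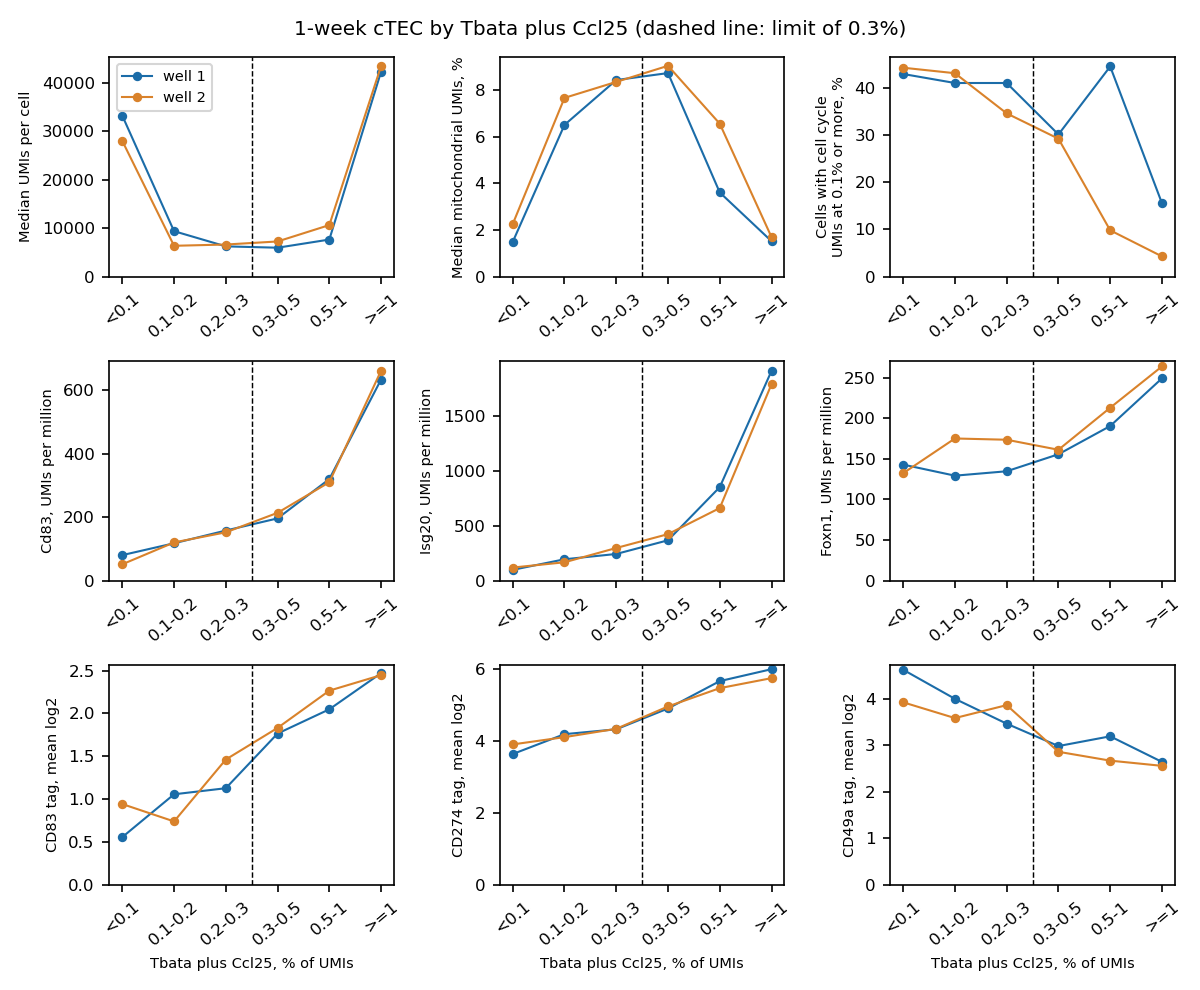
Values of 1-week cTEC (y axes, unit named on each panel) in 6 bands of Tbata plus Ccl25 as a percent of UMIs (x axes), 1 line per well, with the limit of 0.3% as a dashed line. Depth was highest in the outer bands (33259 and 28035 UMIs in the lowest, 42341 and 43506.5 in the highest), while Cd83 was higher in each successive band in both wells.

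Against Tbata-low cTEC, the rich cTEC carried more RNA of Fxyd2, Isg20, Inmt, Oma1 and Cd83 and less RNA of cell cycle genes, of the nestin gene Nes and of several genes of vessel walls. A gene counted as higher or lower here when its CPM, with 1 UMI added to each sum, were at least 2-fold apart in both wells. Of 13619 genes with at least 100 UMIs over the 1-week epithelial cells, 307 were higher (2.25%) and 1053 lower (7.73%), the genes of the rule included. Because the rule used RNA of these cells, the counts describe the groups and are no test of a difference. The median gene stood at -0.21 on the log2 scale, so values are best read relative to that shift. Of the genes past the limit 22.6% were higher, and this became 38.7% (459 higher, 728 lower) when counts were scaled by the median of gene ratios. Among cells of 8000 to 20000 UMIs, 195 rich and 99 Tbata-low cTEC, 63 genes were higher and 116 lower of 7864. That depth range was chosen after the data were seen. All 12 of the highest named genes were still at least 2-fold higher in it in both wells, and 6 of the 12 lowest were still at least 2-fold lower, with all 12 below 0.

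Fxyd2, a regulator of the sodium and potassium pump, led the higher genes by summed UMIs. Its level was 934 and 755 CPM in the rich cTEC, 79.1 and 70.0 in Tbata-low cTEC, 119 and 84.2 in other epithelial cells and 61.1 and 51.3 in fibroblast-gene cells, a log2 difference of 3.49 ± 0.094 (SD, n = 2 wells), and 2.26 and 1.69 per well at matched depth. The rich cTEC lay above all other groups in both wells. By mean log2 difference at matched depth, Prokr2 (2.81), Inmt (2.80) and Dusp28 (2.68) lay above Fxyd2 (1.97). After thinning Isg20 did so (2.42 against 2.33). Isg20 was at 1574 and 1382 against 170.4 and 191 CPM, a log2 difference of 3.03 ± 0.25 (n = 2 wells) and of 2.22 and 1.45 at matched depth. Isg20 was detected in 87.4% and 85.5% of the rich cTEC after thinning to 4000 UMIs, in 45.9% and 53.1% of Tbata-low cTEC and in 20.3% and 24.2% of fibroblast-gene cells. It is known as a gene induced by interferon.

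Cd83, named as a marker of these cells, stood at 537 and 533 CPM in the rich cTEC. It was at 114 and 107 in Tbata-low cTEC, at 61.0 and 44.0 in other epithelial cells and at 37.9 and 45.6 in fibroblast-gene cells. The log2 difference from Tbata-low cTEC was 2.27 ± 0.056 (n = 2 wells), about 4.84-fold, and 1.50 and 2.02 at matched depth. Thinned to 4000 UMIs, 72.5% and 72.7% of the rich cTEC held a Cd83 UMI, against 34.0% and 33.8% and, in fibroblast-gene cells, 14.1% and 13.6%.

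Inmt, which encodes an indole methyltransferase, was at 73.3 and 69.2 against 5.56 and 8.996 CPM and was seen in a minority of cells, 11.5% and 13.1% of the rich cTEC after thinning, against 3.86% and 7.51% of Tbata-low cTEC and 1.45% and 3.77% of fibroblast-gene cells. Prokr2, a prokineticin receptor gene, was at 64.0 and 57.1 against 4.70 and 13.8. For Inmt and Prokr2 the wells were less alike than for the other genes, with log2 differences of 3.67 and 2.90 and of 3.70 and 2.03. Oma1, a protease gene of the inner mitochondrial membrane, was at 712 and 692 against 103 and 97.0 CPM, with log2 differences of 2.78 and 2.83 and, at matched depth, of 1.87 and 1.32. Chchd10, another gene of a mitochondrial protein, was at 122 and 96.2 against 19.7 and 18.8. The phosphatase gene Dusp28 had a log2 difference of 2.75 ± 0.017 and Bhlhe41, a repressor of the circadian clock, one of 2.41 ± 0.13 (n = 2 wells). Tmie, a gene known from hair cells of the ear, Clip4 and the anion transporter gene Slc22a7 completed the highest 12, with 2.49, 2.29 and 2.21. At matched depth the log2 differences were 1.25 and 1.84 for Bhlhe41, 1.46 and 1.64 for Chchd10 and 2.79 and 2.56 for Dusp28. They were 2.23 and 1.75 for Tmie, 1.32 and 1.97 for Clip4 and 1.90 and 1.32 for Slc22a7. The SD over wells does not cover such shifts.

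**Figure D3:**
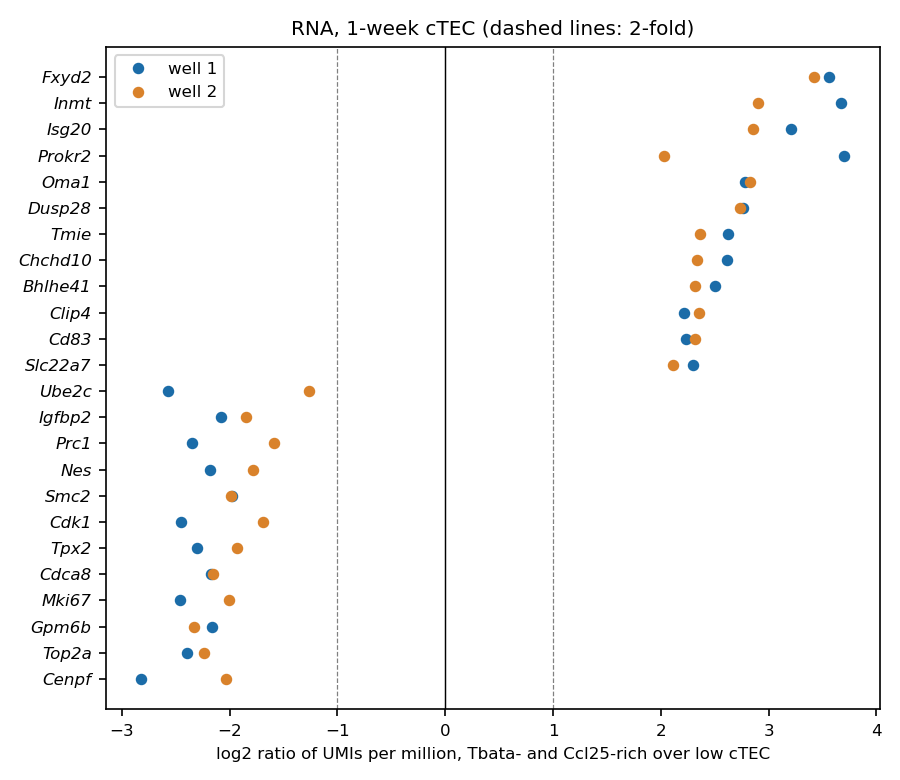
log2 ratio of CPM (UMIs per 1000000 UMIs) in Tbata- and Ccl25-rich over Tbata-low cTEC at 1 week (x axis) for the 12 highest and 12 lowest named genes, 1 point per well, with dashed lines at 2-fold. The wells are close for Fxyd2, Oma1 and Cd83, farther apart for Prokr2 and Ube2c, and every point lies outside the 2-fold lines.

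Genes of dividing cells made up most of the lowest named genes. Mki67, a marker of cycling cells, was at 41.9 and 35.3 CPM in the rich cTEC and at 231 and 142 in Tbata-low cTEC. Top2a, the topoisomerase that untangles replicated DNA, was at 49.3 and 38.6 against 259 and 182, a log2 difference of -2.32 ± 0.11 (n = 2 wells). Cenpf, a centromere protein gene, was at 37.7 and 26.5 against 266 and 109. The cyclin-dependent kinase gene Cdk1 was 4.20-fold lower and the condensin gene Smc2 3.95-fold lower. At matched depth Cdk1 had log2 differences of -1.23 and -1.24 and Smc2 of -1.44 and -1.38. Mki67 had -1.07 and -1.87 and Top2a -1.83 and -1.70 there. Cenpf, at -0.89 and -1.59, was under 2-fold in well 1, as were Cdca8 (-0.32), Tpx2 (-0.38) and Ube2c (-0.33) of the lowest named genes. Of the 19 cell cycle genes listed, all past the filter, 18 were lower and none higher, with a median log2 difference of -1.76 against -0.21 over all genes, and Pcna, at -0.63 and -0.76 in wells 1 and 2, was the exception. At matched depth 6 of the 19 were lower in both wells and the median was -1.09. Cells with at least 0.1% of their UMIs in this list were 27.5% and 12.5% of the rich cTEC, 41.3% and 39.9% of Tbata-low cTEC and 47.4% and 46.1% of the other epithelial cells. Thinned to 4000 UMIs the shares were 34.4% and 23.6%, 48.3% and 44.1%, and 54.3% and 53.9%. The order was the same with and without thinning, and the 2 wells differed among the rich cTEC. These shares count cells above a limit on RNA and are not a measure of division. Nor did they fall steadily with Tbata plus Ccl25. In the highest band 15.5% and 4.27% of cells passed that limit, while in the band from 0.5% to 1% 44.4% did in well 1, the most of any band there, and 9.78% in well 2.

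Among the lowest genes outside the cell cycle, Nes, an intermediate filament gene of progenitors, was at 16.7 and 19.5 against 75.9 and 66.9 CPM. Gpm6b, a membrane glycoprotein gene, was at 13.9 and 10.4 against 62.4 and 52.9. Igfbp2, which binds insulin-like growth factors, was at 19.3 and 19.8 against 81.6 and 71.7. At matched depth Gpm6b had log2 differences of -0.97 and -1.91 and Igfbp2 of -0.80 and -0.58, which left both past 2-fold in at most 1 well.

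Of the 12 listed cTEC genes, all measured, 2 were higher than in Tbata-low cTEC (Cd83 and Ctsl) and 1 was lower (Ackr4), with a median log2 difference of 0.68. Ctsl, the cathepsin that prepares class II peptides in cTEC, was at 14384 and 13862 against 4873 and 4699.7 CPM. Foxn1 was at 229.7 and 239.9 against 136 and 160.0, a log2 difference of 0.67 ± 0.12 that did not reach 2-fold. Dll4 was at 123 and 147 against 72.5 and 90.2. Ly75, the DEC-205 receptor of cTEC, was at 400.2 and 419 against 198 and 220.4. The chemokine gene Cxcl12 was at 1189.6 and 1127 against 816 and 770.0 and Pax1, a TEC transcription factor gene, at 715 and 655 against 481 and 479. For Foxn1, Dll4, Ly75, Cxcl12 and Pax1 the rich cTEC were above Tbata-low cTEC in both wells, as were 26.1% of all genes tested, and only Ly75 passed 2-fold in a well, well 1. Ackr4, which encodes a scavenger receptor for CCL25 and other chemokines, was at 66.8 and 73.9 against 195 and 195, a log2 difference of -1.47 ± 0.10 and of -1.34 and -1.11 at matched depth. After thinning to 4000 UMIs it differed by -1.23 and -0.62 and as a mean of cells by -1.16 and -0.97, lower in both wells but past 2-fold in well 1 alone.

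None of 12 listed transcription factor genes past the filter, of 14, was 2-fold apart between the 2 cTEC groups, and their median log2 difference was -0.24. Pax9 was at 127 and 125 against 170.1 and 165 CPM and Trp63, a factor of epithelial progenitors, at 121 and 129 against 140.4 and 163. The listed factors that act on thymocytes also stayed within 2-fold, 0 of 10 past the filter of 12. Il7, needed for early thymocyte survival, was at 222 and 221 against 159 and 165, Kitl at 114 and 116 against 120.3 and 115, and Wnt4 at 701 and 683 against 485 and 449.8.

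In the MHC class II list, 0 of 9 genes were 2-fold apart and 7 were above 0 and 1 below 0 in both wells, as were 26.1% and 56.6% of all genes tested, with a median log2 difference of 0.31. Cd74, the invariant chain, was at 9311 and 8784 against 7208 and 6856 CPM, and H2-Aa was at 3064 and 3017 against 2326 and 2285. Of 10 genes of MHC class I and its peptide supply, 1 was higher, the proteasome subunit gene Psmb10 at 1649 and 1526 against 711 and 632. B2m, the class I light chain, was at 944 and 981 against 546 and 584, and Psmb8, the subunit that Psmb11 replaces in cTEC, at 62.6 and 59.3 against 99.8 and 86.0. Of 12 lysosome and autophagy genes, 2 were higher, Ctsl and Sqstm1, and 1 was lower, Lgmn. Sqstm1, the autophagy receptor p62, was at 336 and 332 against 113 and 114, and Lgmn, a lysosomal endopeptidase gene, at 20.1 and 22.6 against 51.7 and 46.1. At matched depth Ctsl, Sqstm1 and Psmb10 had log2 differences of 1.23 and 0.84, 0.88 and 0.97 and 0.55 and 1.09, so each was under 2-fold in at least 1 well there.

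Of 9 genes of the TNF family and NF-kB, 8 passed the filter and 0 were 2-fold apart in both wells. Cd40, the receptor through which thymocytes signal to TEC, was at 53.2 and 53.4 against 26.5 and 26.4 CPM, close to 2-fold, and at 63.1 and 54.4 in the other epithelial cells. Its log2 difference was 0.076 and 0.82 at matched depth, 0.50 and 0.46 after thinning, 1.20 and 1.20 with scaling by the median of gene ratios and 1.47 and 1.46 without cells over 5% mitochondrial UMIs, so it passed 2-fold with that scaling and with that limit. Relb was at 146 and 151 against 106 and 115. Among 11 immediate early and heat shock genes, which rise during tissue digestion, Dnajb1 was higher (281 and 237 against 121 and 115) and Nr4a1 lower (51.0 and 49.3 against 127 and 141), and Fos (-0.076), Fosb (0.11), Jun (0.18) and Egr1 (-0.35 on the log2 scale) stayed within 2-fold.

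Of 9 listed mature medullary TEC genes 1 was lower than in Tbata-low cTEC, Cd80, and against the other 1-week epithelial cells all 9 were lower. Aire, the regulator of tissue antigens in the medulla, was at 26.9 and 20.5 CPM, against 46.6 and 48.9 in Tbata-low cTEC and 112 and 141 in epithelial cells without the cTEC counts. Of 9 genes of intertypical TEC (TEC with cortical and medullary traits), 4 were lower than in Tbata-low cTEC (Krt14, Krt15, Pdpn and Apoe) and 1 was higher (Plet1, at 1.91 and 2.40 against 0.641 and 0.843). Krt14 was at 23.7 and 27.8 against 119.7 and 65.8 and Apoe at 88.2 and 84.5 against 239 and 242. Plet1 was near 0 in both groups and turned its direction under thinning, so it carries little weight. At matched depth Krt14 differed by -0.15 and -0.27, Pdpn by -0.61 and -0.15 and Apoe by -0.54 and -0.88, and Krt15 did not pass the filter, so none of the 4 was 2-fold lower there. Thinned, Apoe differed by -0.96 and -1.20. Of 3 tuft cell genes past the filter, of 5, 0 were 2-fold apart.

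Markers of other cell types in the sort moved with some of these results. Of 5 mural cell markers 4 were lower in the rich than in Tbata-low cTEC, and their summed level was 242 and 292 CPM against 572 and 456. Of 5 endothelial markers 2 were lower, with sums of 31.2 and 36.1 against 78.0 and 71.1, and of 6 fibroblast markers 1 was lower, with 155 and 143 against 266 and 278. All markers of these 3 lists had UMIs in both groups. Of 16 thymocyte markers 15 passed the filter and 0 were 2-fold apart, with sums of 641 and 658 against 584 and 474. At least 5 thymocyte UMIs were found in 30.3% and 30.7% of the rich cTEC and in 11.6% and 9.39% of Tbata-low cTEC. With each cell thinned to 4000 UMIs, at least 1 was found in 59.2% and 49.4% against 51.0% and 53.5%, and the wells of the 2 groups overlapped. Of 7 macrophage markers 3 passed the filter and none was 2-fold apart, with sums of 20.7 and 26.6 against 21.4 and 40.2. Erythroid markers summed to 325 and 23.4 in the rich cTEC and 59.0 and 39.6 in Tbata-low cTEC, so well 1 stood apart. The part of such cells or of free RNA in the differences was not tested. Scrublet, at a fixed rate, marked 10 and 4 of the rich cTEC as likely doublets.

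Against all 1017 other 1-week epithelial cells, 389 genes were higher (2.86%) and 2054 lower (15.1%), again a description. At 8000 to 20000 UMIs the counts were 186 and 526, and after thinning 162 and 567. Of the genes past the limit 15.9% were higher, or 25.6% with scaling by the median of gene ratios, and the median gene stood at -0.19 on the log2 scale. Most of the highest genes were those already named, with Inmt at a log2 difference of 3.73 ± 0.05, Isg20 at 3.51 ± 0.026 and Fxyd2 at 3.24 ± 0.035 (n = 2 wells). Scnn1a, an epithelial sodium channel gene, and Snap91, a clathrin adaptor gene of neurons, entered the list at 2.40 and 2.35. Of the cTEC list 7 of 12 genes were higher and 0 lower, Foxn1 (2.25-fold), Dll4 (2.35-fold) and Enpep, the gene of the cTEC antigen Ly51 (2.50-fold), among them. The proteasome subunit gene Psmb9 was 2.28-fold higher and Psmb8 2.16-fold lower. Endothelial and mural genes were prominent at the other end, with Cd93, Cldn5, Egfl7, Ptprb and Cdh5 of vessel lining and Rgs5 and Tagln of vessel wall among the lowest 12. Rgs5 was at 41.5 and 71.1 CPM in the rich cTEC and 1169.7 and 1043 in the epithelial cells without the cTEC counts, and 981 and 886 in fibroblast-gene cells. All 5 endothelial markers and 4 of 5 mural markers were lower, with sums in the epithelial cells without the cTEC counts of 545 and 576 and 2154 and 2111. The epithelial group compared therefore carried UMIs of vessel cells, whose part in these differences was not tested.

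Genes whose thinned counts went along with Tbata plus Ccl25 over the 1425 cTEC of 1 week were ranked by Spearman's rho among 7599 genes with at least 500 UMIs. The points are cells of the same 2 wells and share depth by construction, so rho is a description. Tbata and Ccl25 themselves had rho 0.82. The highest were Cstb, an inhibitor of cathepsins (0.77), Ctsl (0.77), Isg20 (0.74), the keratin genes Krt18 (0.72) and Krt8 (0.71), Txn1, thioredoxin (0.68), Fam213b (0.64), Psmb4 (0.63), the ferritin gene Fth1 (0.60) and Psmb10 (0.59). Within well 1 and well 2 alone the first of these had 0.769 and 0.771. The lowest 10 were 9 mitochondrial transcripts, from mt-Cytb at -0.43, and the midkine gene Mdk at -0.36.

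The surface tags took no part in choosing the cells. A tag level here is log2 of the tag's count divided by the ADT total of the cell and multiplied by the mean total, with 1 added. The tags on which the result below turns carry these barcodes, given so that the counted sequences can be told apart.
CD83: tctcaggcttcctag
CD40: atttgtatgctggag
CD270: gatccgtgttgccta
CD274: tcgattccaccaact
Sca1: ttcctttcctacgca
UEA1, read through streptavidin-PE: aacctttgccactgc
Of 26 tags with counts in 1-week cTEC, 6 were higher on the rich than on Tbata-low cTEC in both wells (23.1%) and 17 lower (65.4%). The tag for Ly6D had 0 counts in both groups. Tag levels share 1 total per cell, so a tag that takes more of it lowers the others. The ADT total itself had medians of 6079 and 8319.5 on the rich cTEC and 4381 and 4302 on Tbata-low cTEC.

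CD274 (PD-L1), a ligand that dampens T cells, had the largest difference. Its level was 5.61 and 5.45 on the rich cTEC and 4.13 and 4.15 on Tbata-low cTEC, a difference of 1.48 and 1.30 in wells 1 and 2, and it was 2.69 and 3.05 on fibroblast-gene cells. CD83 was at 2.17 and 2.23 against 0.99 and 1.06, a difference of 1.18 and 1.17, with 0.48 and 0.45 on other epithelial cells and 0.37 and 0.62 on fibroblast-gene cells. CD40 was at 5.89 and 5.94 against 4.74 and 4.90, a difference of 1.14 and 1.05, with 4.54 and 4.69 on fibroblast-gene cells. CD270 (HVEM), a TNF receptor family member, was at 7.74 and 7.76 against 6.79 and 6.88, with 6.69 and 6.87 on fibroblast-gene cells. For CD40 and CD270 the Tbata-low cTEC thus lay close to the fibroblast-gene cells on this scale. The median ADT total of the fibroblast-gene cells was 259.5 and 271, against 4381 and 4302 on Tbata-low cTEC. A single count therefore weighs far more in the fibroblast-gene cells, and their levels are a weak background. Each of the 4 differences was larger than the gap between the 2 wells of either group, and no other tag was more than 0.5 higher. MHCII, at 0.30 and 0.36, and the adhesion molecule CD54, at 0.18 and 0.23, were higher by less. At matched depth of 8000 to 20000 RNA UMIs the differences were 1.43 and 0.90 for CD274, 1.13 and 0.93 for CD83, 1.26 and 0.92 for CD40 and 0.79 and 0.79 for CD270. All 4 kept their direction in both wells there and in cells with at most 5% mitochondrial UMIs, where CD83 differed by 1.20 and 1.00. At matched depth MHCII fell to 0.28 and 0.073 and CD54 to 0.078 and 0.17. Under the mitochondrial limit they were at 0.21 and 0.13 and at 0.082 and 0.046.

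The tags that were lower included Sca1, a marker of intertypical TEC, at 4.17 and 4.14 against 5.23 and 4.95, a difference of -1.06 and -0.81. CD49a, integrin alpha 1, was at 2.89 and 2.67 against 3.90 and 3.77, and MadCAM1 at 2.42 and 2.38 against 3.44 and 3.37. UEA1, the lectin that marks medullary TEC, was at 7.91 and 7.85 against 8.65 and 8.73. The EpCAM tag was lower by 0.46 and 0.45, with 7.48 and 7.33 against 7.94 and 7.78. CD9 differed by -0.68 and -0.77. At matched depth Sca1 differed by -0.88 and -0.20, so little was left in well 2, CD9 by -0.33 and -0.83, CD49a by -0.70 and -0.81, MadCAM1 by -0.91 and -0.93 and UEA1 by -0.53 and -0.80. CD146, CD31 and CD157 had differences of opposite sign in the 2 wells. With a centred log ratio in place of the share of the total, CD274, CD83, CD40, CD270, MHCII and CD54 were still higher and Sca1, CD49a, MadCAM1, UEA1, CD9 and EpCAM still lower in both wells, while CD63, CD200 and podoplanin had opposite signs in the wells. Against the epithelial cells without the cTEC counts the differences were 1.69 and 1.78 for CD83, 1.68 and 1.78 for CD274, 1.28 and 1.27 for CD270, -1.81 and -2.08 for Sca1 and -1.52 and -1.81 for UEA1. Podoplanin, lower than on Tbata-low cTEC by 0.34 and 0.16, was higher than on these cells by 1.17 and 1.25.

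RNA and tag can be set side by side where both were measured. For Cd83 the RNA was 2.24 and 2.31 and the tag 1.18 and 1.17 higher on the log2 scale, so both were up in both wells. For CD274 the tag difference of 1.48 and 1.30 stood beside an RNA difference of 0.60 and 0.47 (469 and 519 against 309 and 375 CPM), below 2-fold. For CD40 the tag difference was 1.14 and 1.05 and the RNA difference 1.00 and 1.00. Tnfrsf14, the gene of CD270, did not pass the filter, with 2.24 and 3.35 CPM, while its tag was among the most raised. Ly6a, the Sca1 gene, was at 26.0 and 32.4 against 54.3 and 48.1 and its tag lower too. Icam1, the CD54 gene, had RNA differences of -0.26 and -0.16, about those of the median gene. Of 22 tag genes past the filter, of 28, 1 was higher (Cd83) and 5 were lower (Kit, Mcam, Pdpn, Cd80 and Pecam1).

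**Figure D4:**
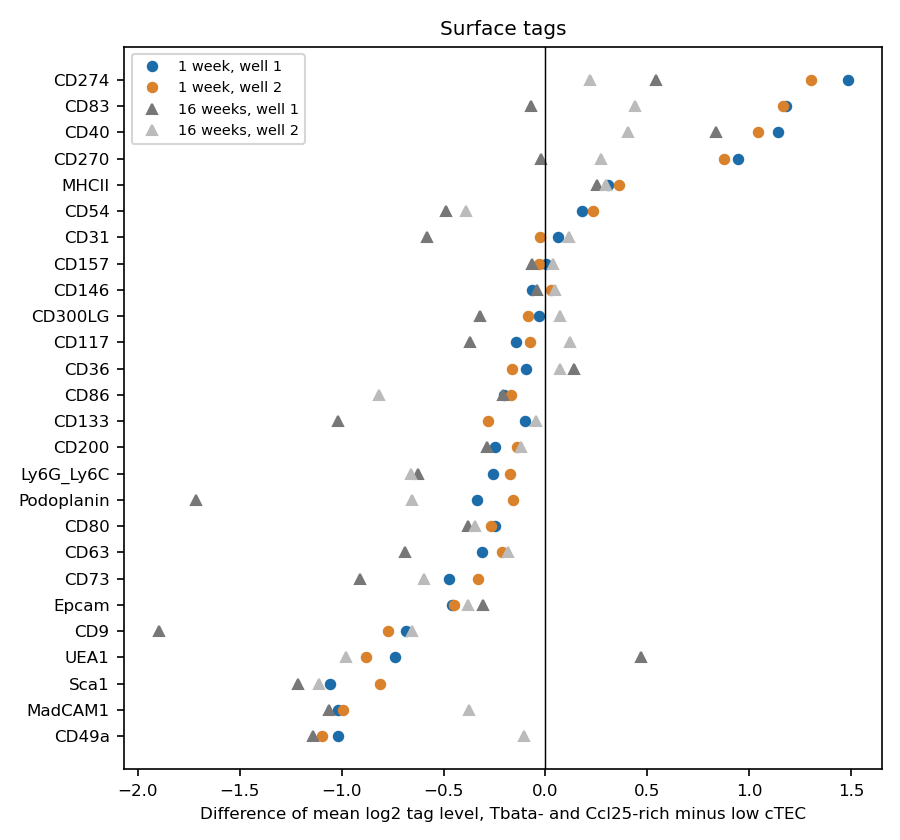
Difference of mean log2 tag level between Tbata- and Ccl25-rich and Tbata-low cTEC (x axis) for the 26 tags with counts, 1 point per well at 1 week (circles) and at 16 weeks (triangles). CD274, CD83, CD40 and CD270 stand apart on the right at 1 week with differences from 0.88 to 1.48, and the 16-week points of each of these tags lie nearer to 0.

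The study defines perinatal cTEC on the surface as negative for UEA1 and Sca1 and positive for CD83 and CD40. With a limit per tag set by a 2-component mixture over epithelial cells, 77.0% (73.5% to 80.3%) and 81.8% (77.4% to 85.7%) of the rich cTEC fell in this gate, a mean of 79.4% ± 3.38 (SD, n = 2 wells). Of Tbata-low cTEC 38.2% (32.3% to 44.4%) and 42.7% (36.0% to 49.7%) did, and of the other epithelial cells 13.4% and 10.6%. The intervals of the 3 groups did not overlap. Of the cells in the gate, 77.0% of 601 and 70.9% of 406 were rich cTEC and 16.5% and 22.4% Tbata-low cTEC. The CD83 limit lay at 0.0044 on the log2 scale, which any CD83 count passes, so the gate depends on how many tags a cell yielded. With every cell thinned to 2000 ADT counts, which left out 95 and 24 of the rich cTEC and 48 and 37 of Tbata-low cTEC, the shares were 65.0% and 65.5% against 26.5% and 29.5%, with 7.57% and 7.27% of the other epithelial cells. Of the fibroblast-gene cells, 27 in each well kept 2000 counts and 249 and 238 were left out. Of the 27, 11.1% (2.35% to 29.2%) and 29.6% (13.8% to 50.2%) were in the gate. Tbata-low cTEC had intervals of 20.7% to 33.0% and 22.9% to 36.9%, which overlapped these in both wells. The median ADT total of all fibroblast-gene cells was 259.5 and 271, so the 27 were not typical of that group and are a weak background. The mean CD40 level of all fibroblast-gene cells lay above the CD40 limit of 3.25, at those low totals. With limits on the centred log ratio the shares of rich and Tbata-low cTEC were 59.1% and 60.8% against 10.4% and 10.3%. The level of the share thus moved with the scale, and the order of the 3 groups was the same on each. CD83 had the widest gap of the 4 tags between the groups. Before thinning, 84.9% and 88.1% of the rich cTEC were CD83-positive, against 53.7% and 54.0% of Tbata-low cTEC and 29.2% and 28.3% of the other epithelial cells, while CD40 was positive in 98.0% and 98.9%, 86.9% and 92.0%, and 85.6% and 88.6%.

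**Figure D5:**
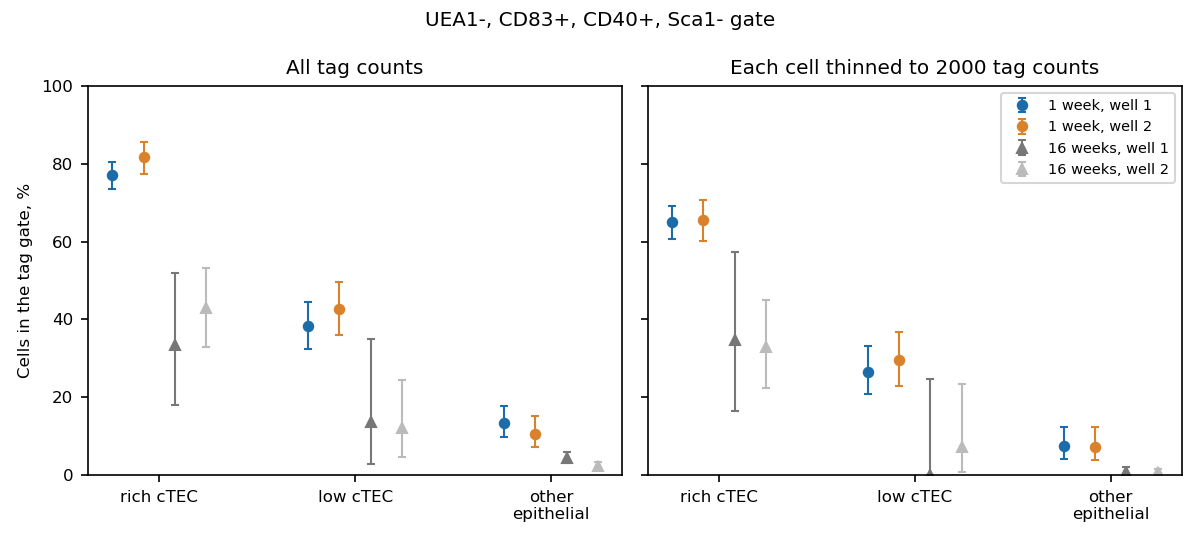
Percent of cells in the gate without UEA1 and Sca1 and with CD83 and CD40 (y axis) for 3 groups of epithelial cells (x axis), per well, with exact 95% binomial intervals as bars, from all tag counts (left) and from cells thinned to 2000 tag counts (right). At 1 week the rich cTEC were at 77.0% and 81.8% on the left and at 65.0% and 65.5% on the right, above both other groups in each panel.

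The 131 cells of 16 weeks that met the same rule allow a comparison across age among cells chosen alike. It was added after the cell counts were seen. A gene counted as apart here when all 4 pairings of a 1-week with a 16-week well were at least 2-fold. Of 11655 genes past the filter 212 were higher at 1 week (1.82%) and 435 lower (3.73%), with the median gene at -0.088 on the log2 scale. The same minima chose the cells at both ages, so the levels of the 4 cTEC genes of the rule are a description. Tbata was at 9322 and 8676 CPM at 1 week and 7335 and 9045 at 16 weeks, Psmb11 at 1138 and 1138 and 918 and 1169.5, and the log2 age differences over the 4 pairs were -0.06 to 0.35 and -0.04 to 0.31. For Ccl25 they were -0.10 to 0.54 and for Prss16 -0.31 to 0.081. Of the other genes of the rule, the collagen genes Col1a1 (1.90 to 3.09) and Col3a1 (1.43 to 2.49) were higher at 1 week, and the keratin gene Krt5 (-3.43 to -3.22) and the decorin gene Dcn (-1.96 to -1.46) lower. With 1 pool per age, age cannot be told apart from the pool or its handling. The sexes in the pools also differed. The Y-linked genes Ddx3y, Eif2s3y, Uty and Kdm5d had 0 UMIs in the 16-week cells of both wells, with Ddx3y at 28.0 and 26.6 CPM at 1 week, and Xist was at 634 and 672 at 1 week and 1040.4 and 1102 at 16 weeks. Age and sex makeup cannot be told apart either. Of 16 thymocyte markers 14 passed the filter, 1 was higher at 1 week and 0 lower, with a median log2 difference of 0.71. At least 5 thymocyte UMIs were found in 30.3% and 30.7% of the rich cTEC at 1 week and in 15.2% and 14.3% at 16 weeks. The part of thymocyte RNA in the age differences was not tested.

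The highest genes at 1 week included chemokine genes. Cxcl10, which draws activated T cells, was at 1989.9 and 2291 CPM at 1 week and 449.9 and 699.6 at 16 weeks. Cxcl1, which draws neutrophils, was at 50.2 and 68.3 and 5.90 and 11.6. Cxcl11, which the annotation lists as a polymorphic pseudogene, was at 199 and 212 and 21.3 and 89.0. Bex2 led with 51.2 and 60.2 against 4.72 and 6.23, and Mdk, a growth factor gene of developing tissues, was at 267 and 262 against 98.0 and 47.2. Hmgcs1, an enzyme of cholesterol synthesis, was 3.82-fold higher. Of 19 cell cycle genes 2 were higher at 1 week, Ccnb1 and Pclaf, and 0 lower. Of 11 immediate early and heat shock genes Atf3 and Ier2 were higher at 1 week, and Hspa1a (193 and 175 against 827 and 829) and Hspa1b lower. Cd83 RNA was at 537 and 533 against 239 and 395, a log2 difference of 0.43 to 1.16 over the pairs, and Dll4 at 123 and 147 against 54.3 and 72.1.

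Lower at 1 week were genes of intertypical TEC, 5 of 7 past the filter, of 9. Ccl21a, a chemokine gene of the medulla, was at 218 and 362 CPM at 1 week and 4541 and 3475 at 16 weeks, and Krt14 at 23.7 and 27.8 and 326 and 187. Igfbp5 was at 20.4 and 31.7 and 1082 and 635. In the fibroblast-gene cells Ccl21a was at 115 and 306 and 696 and 560.0, Krt14 at 35.9 and 46.9 and 96.6 and 128 and Igfbp5 at 836 and 1476 and 425 and 438, and the part of free RNA in the age difference was not tested. Of 10 class I genes 4 were lower at 1 week, B2m (944 and 981 against 2356 and 2036), H2-K1, Psmb8 (62.6 and 59.3 against 243 and 326) and Nlrc5, the class I transactivator gene. Fcgbp and the complement gene C3 were also among the lowest, at -5.31 and -4.42 on the log2 scale, as were the small heat shock gene Hspb1 (-4.58) and Apoe (-3.66).

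The difference between rich and Tbata-low cTEC was in part present at 16 weeks, where 33 and 98 rich cells stood against 22 and 50 Tbata-low cells. Cd83 had log2 differences of 1.86 and 2.06 in the 16-week wells, Fxyd2 of 3.51 and 3.23, Slc22a7 of 3.03 and 3.90 and Oma1 of 1.48 and 1.95. All 12 of the highest named genes were above 0 in both wells and 7 were at least 2-fold higher in both. Over the 13619 genes these shares were 19.0% and 1.06%. The other 5 were Isg20 (0.93 and 2.95), Inmt (0.89 and 2.34), Prokr2 (0.95 and 2.29), Chchd10 (1.06 and 0.64) and Tmie (0.59 and 1.00). Of the 12 lowest, 5 were below 0 in both wells and 1 was at least 2-fold lower in both, Gpm6b, with -2.25 and -1.74, where 42.0% and 5.04% of the 13619 genes were. Mki67 and Top2a did not stand below 0 in both wells, with 0.37 and -0.062 and -0.60 and 0.50. On the surface, CD40 was higher on the rich cells by 0.84 and 0.41 and CD274 by 0.54 and 0.22 in the 16-week wells, and the CD83 tag differed by -0.07 and 0.44 and CD270 by -0.024 and 0.27, so these last were not higher in well 1 on this scale. With the centred log ratio CD83 was higher by 0.40 and 0.66 and CD270 by 0.50 and 0.64, in both wells. Whether any of these differ from the 1-week values was not tested.

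On the surface the rich cTEC differed between the ages mainly in Sca1 and CD49a. Sca1 was at 4.17 and 4.14 at 1 week and 7.12 and 6.77 at 16 weeks, and CD49a at 2.89 and 2.67 and 5.41 and 5.23. CD40 was higher at 1 week by 1.08 to 1.56 over the 4 pairs, CD63 by 1.14 to 1.43 and CD83 by 0.57 to 1.05. CD270 was at 7.74 and 7.76 and 8.28 and 8.19. In the gate were 33.3% (18.0% to 51.8%) and 42.9% (32.9% to 53.3%) of the 16-week rich cells, 34.8% and 32.9% after thinning to 2000 ADT counts, and 18.2% and 27.6% with limits on the centred log ratio. Of the 4 tags, Sca1 had the widest gap between the ages, with 51.5% and 63.3% Sca1-negative at 16 weeks against 96.5% and 95.5% at 1 week, and CD83 was positive in 54.5% and 64.3% against 84.9% and 88.1%. Median ADT totals were 3634 and 3604.5 at 16 weeks.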

How the data were processed

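With STARsolo 2.7.9a, mm10 and Ensembl gene models the authors made, kept for cells of at least 2000 UMIs, and deposited whole-number counts of UMIs per gene and cell and counts of ADT per cell, with no normalisation. Cells were assigned to library and age by the library name in the cell name, which matches the sample titles. All 55487 genes were read, and 55141 had a symbol in GENCODE M21 (GRCm38).

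Members were chosen by UMI limits alone, with no clustering. The rule, the gene lists and the comparisons were chosen with earlier results of these data known. UMIs were summed per well and group, divided by the group's total, and compared as log2 ratios with 1 UMI added to each sum, for genes with at least 100 UMIs over the 1-week epithelial cells. For thinning, UMIs were drawn at random without replacement. Named genes were the 12 highest and the 12 lowest by mean log2 ratio in each comparison, among genes at least 2-fold apart in both wells with at least 50 UMIs per 1000000 UMIs (CPM) in the higher group, genes of the rule left out, plus the listed genes and all tags. For the age comparison, added later, the same rule was used over the 4 pairs of wells. Levels of different genes were not compared, since the 3′ counts are not per length. Reads of near-identical gene copies cannot be told apart in the counts.

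Doublets were scored per library with scrublet (scanpy 1.11.5). The limit it sets itself found only 14 cells and was judged to have failed. Therefore 253 cells were marked at 0.8% per 1000 cells, and leaving them out was an alternative only. Gates used scikit-learn 1.9.0, and other steps numpy 2.4.6, scipy 1.17.1 and pandas 2.3.3. The code was checked on simulated counts. The alternatives were other depth minima and limits of the rule, thinning, leaving out doublets or cells with thymocyte or cell cycle UMIs, other scalings and filters for RNA and tags, and each well alone. 3 more were chosen after seeing the data: without shared barcodes, cells of 8000 to 20000 UMIs, and without cells over 5% mitochondrial UMIs.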

Additional observations from a re-analysis of the deposited data

Results flagged for a closer look

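In 3 results the rich minus Tbata-low difference had one sign in both 1-week wells and the other sign in both 16-week wells. They were picked out for this pattern. The share of all tags and genes with it is not given, so the count is not set against a background. The difference between the ages was not tested, and the 16-week values rest on 33 and 98 rich and 22 and 50 Tbata-low cells. The CD54 tag differed by 0.21 on the log2 scale at 1 week (0.18 and 0.23 in the wells) and by -0.44 at 16 weeks (-0.49 and -0.39). With the centred log ratio the 16-week values were 0.026 and -0.023. The CD36 tag differed by -0.13 at 1 week (-0.094 and -0.16) and by 0.11 at 16 weeks (0.14 and 0.072), from 8 and 37 tag counts on the rich and 3 and 15 on the Tbata-low cells. With the centred log ratio the 16-week values were 0.16 and -0.062. Neither tag thus had 1 sign in both 16-week wells on that scale. Tpx2 RNA, a gene of the mitotic spindle, differed by -2.12 at 1 week (-2.30 and -1.93) and by 0.74 at 16 weeks (0.42 and 1.07). Its 1-week values were -0.38 and -1.71 in cells of 8000 to 20000 UMIs and 0.72 and -0.25 without cycling cells. At 16 weeks only 2 and 3 of the rich and 1 and 3 of the Tbata-low cells passed the cell cycle limit.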

How the results depend on the processing

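No paired analysis was possible between the ages because their wells share only a number. Groups of cells of 1 age were compared within each well, without a test. Of 21 settings, 16 bore on the 385 gene values and 16 on the 26 tag values. Those that turned their sign are given here, and the cause was not tested.

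The mean share in the gate (79.4%) was 61.6% with a minimum of 2000 UMIs, 85.7% with 8000, 74.5% and 83.5% with Tbata plus Ccl25 limits of 0.2% and 0.4%, 83.5% without cycling cells, 59.9% with the centred log ratio and 74.4% in cells of 8000 to 20000 UMIs. The share of 1-week epithelial cells (47.6%) was 57.3% at the 0.2% limit and 54.4% without cells over 5% mitochondrial UMIs. The 16-week share (4.24%) was 6.27% with a minimum of 8000 UMIs, 3.23% in cells of 8000 to 20000 and 6.96% without cells over 5% mitochondrial UMIs.

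Genes higher and lower than in Tbata-low cTEC (307 and 1053) were 125 and 379 after thinning and 63 and 116 at 8000 to 20000 UMIs, and the counts against other epithelial cells (389 and 2054) were 162 and 567, and 186 and 526. Genes tested were 13619 in the main run, 8800 after thinning and 7864 at 8000 to 20000 UMIs. Fewer UMIs entered both settings, and fewer cells the second. Mean log2 differences from Tbata-low cTEC were also smaller in both, Fxyd2 at 2.33 and 1.97 in place of 3.49 and Dusp28 at 2.30 and 2.68 in place of 2.75. Lower genes were 7342 and 5678 with no filter and 393 and 733 with a minimum of 500 UMIs, each among another number of genes tested. Higher genes were 199 with per-cell means (Tbata-low cTEC) and 592 with median scaling (other epithelial cells). With 1 well alone 448 to 483 genes were higher and 1640 to 1660 lower than in Tbata-low cTEC, since 1 well sets fewer conditions.

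Signs turned for the CD86 tag (0.028 with a minimum of 8000 UMIs, 0.075 at 8000 to 20000), the Ly6G_Ly6C tag (0.037 at 8000 to 20000), CD63 (0.0024) and CD200 (0.069) with the centred log ratio, Plet1 (-1.50 thinned, -0.10 at 8000 to 20000) and Mcam (0.18 without cells over 5% mitochondrial UMIs). Without cycling cells, which takes out the cells by these genes, they turned for Ccnb1 (0.21, and 0.47 against other epithelial cells), Cenpf (0.093), Tpx2 (0.24) and Ube2c (0.043). The 16-week values rest on 33 and 98 cells.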

Other observations

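Erythroid transcripts were uneven between the wells of the 1-week pool. Hbb-bs, the adult beta globin gene, was at 159 CPM in the rich cTEC of well 1 and 8.82 in well 2, against 27.6 and 16.9 in Tbata-low cTEC and 22.4 and 13.0 in fibroblast-gene cells. The excess was thus seen in the rich cTEC of 1 well. No cell-level split of it was made.

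The endocrine genes Chga, of a protein of secretory granules, and Pth, of parathyroid hormone, were also uneven between the 1-week wells. In the epithelial cells without the cTEC counts Chga was at 299.7 and 747 CPM in wells 1 and 2 and Pth at 258 and 1168. In the rich cTEC the order of the wells was the other way, with Chga at 25.6 and 10.4 and Pth at 50.6 and 18.9.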
